A study of Drosophila melanogaster with 4 samples.

Results

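Glutathione S-transferases join the tripeptide glutathione to electrophilic compounds, which makes these compounds more soluble and easier to export. Insects have cytosolic transferases of the delta (D), epsilon (E), omega (O), sigma (S), theta (T) and zeta (Z) classes, and the delta and epsilon classes are the ones best known for handling insecticides, plant compounds and lipid peroxidation products. In flies, several delta genes are transcribed under the Nrf2 homolog cnc, with its partner maf-S and its inhibitor Keap1, and reporters driven by the GstD1 promoter are a common readout of that pathway.

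The family was taken as every array row with a single gene symbol made of Gst, a class letter (D, E, O, S, T or Z) and a number. This rule, which used no measured value, found 35 genes among the 13402 tested, each with 1 row, namely 11 of class D, 14 of class E, 3 of class O, 1 of class S, 4 of class T and 2 of class Z. Of these, 0 shared a row with another gene symbol, and all 35 matched a RefSeq gene record by Entrez identifier.

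Expression was measured on 4 Affymetrix arrays of fat body, the larval organ of nutrient storage, hemolymph protein secretion and much of detoxification, from the Drosophila melanogaster strain w1118, a laboratory stock with white eyes. Larvae were 5 days old and had been on their diet since the egg stage. In the 2 PFJ arrays the semi-purified diet held palm fruit juice (PFJ), a watery extract rich in phenolics, at 4 ml, which the labels equate with a phenolic content (in gallic acid equivalents) of 19000 mg per kg or 0.86 mg per kcal. In the 2 control arrays it held none. Each array carried RNA pooled from 10 larvae, and the labels give neither the sex of the larvae nor a batch. Values are log2 intensities made by the authors with RMA, a method that corrects background, brings the probes of all arrays to one distribution and combines the probes of a gene, and 1 unit is a 2-fold difference.

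Of the 8 measured fat body markers, all but the hormone receptor gene AkhR (4.16 and 4.37 in PFJ arrays, 3.92 and 3.97 in control arrays) were bright in every array. The larval storage protein gene Lsp2 read 12.22 and 12.24 in PFJ arrays, against 12.27 and 12.32 in control arrays, and the fat body protein gene Fbp1 read 10.21 and 10.11 against 10.09 and 9.99. These were the markers that differed least. In 7 of the 8 both PFJ values were the higher ones (against 15.5% of all genes) and in Lsp2 both were the lower, with a median log2 difference of 0.44. Obp99b, a secreted odorant-binding protein gene, differed by 1.26 (SE 0.27) and the fatty acid synthase gene FASN1 by 1.23 (SE 0.31). RNA of other tissues was read as well. The mean of 28 midgut markers, mostly digestive enzymes, was 5.94 and 7.07 in PFJ replicates 1 and 2 and 5.28 and 6.66 in control replicates 1 and 2. The mean of 13 testis markers was 5.14 and 4.01 in PFJ arrays and 5.49 and 2.48 in control arrays, so control replicate 2 stood apart there. In pooled tissue, more cells of a type and more RNA per cell cannot be told apart.

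By group means, 29 of 35 members (82.9%) read higher with PFJ than in controls, against 51.9% of all genes. The largest differences were those of GstD10 and of the epsilon genes GstE7, GstE3 and GstE1, but no member passed the adjusted test. In 15 of 35 genes (42.9%) the groups were separated with both PFJ values the higher ones, where 15.5% of all genes showed this. Both PFJ values were the lower ones in 1 gene, GstE13 (2.86%), against 13.1% of all genes. The other 19 genes overlapped between groups. More than 2-fold higher with PFJ were GstD10, GstE7 and GstE3 (3 of 35, or 8.57%, against 1.54% of all genes), and 0 members were more than 2-fold lower, against 0.418% of all genes. The median log2 difference, PFJ minus control, was 0.23 over the family and 0.01 over all genes tested.

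The test was limma's moderated test on all 13402 genes, with Benjamini-Hochberg adjustment. It called 0 members and 0 genes in all (0%), and every member had an adjusted p of 1. At an unadjusted limma p under 0.05, 5 members were higher (14.3%), against 1.74% of all genes, and 0 members were lower, against 1.04%. In either direction 2.78% of all genes reached that level. The 5 members were GstD10, GstD2, GstE9, GstE1 and GstE7. With 2 arrays against 2, an exact permutation test of a single gene cannot give a two-sided p below 0.333.

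**Figure D1:**
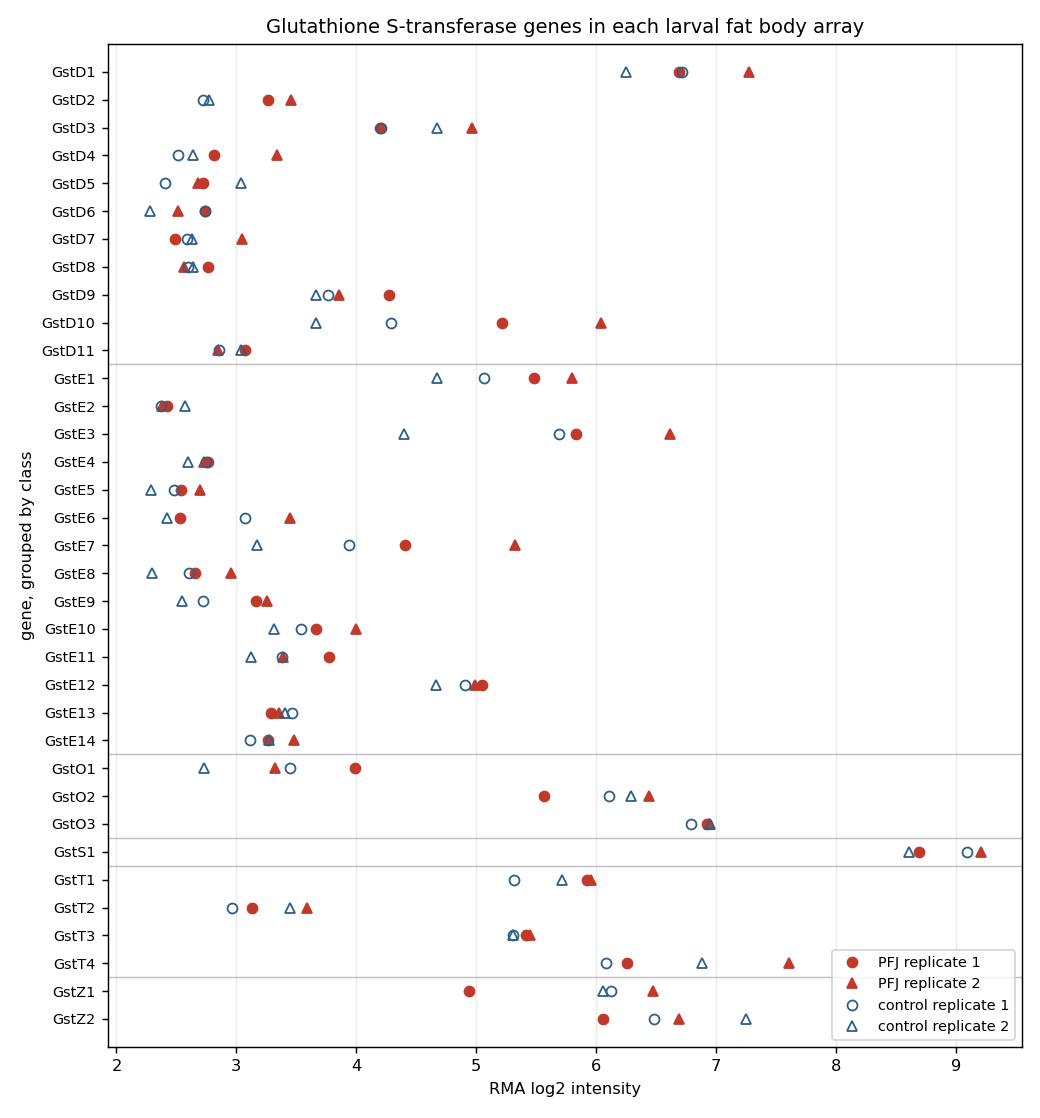
RMA log2 intensity (horizontal axis) of the 35 glutathione S-transferase genes, grouped by class, in each of the 4 arrays. Filled red symbols are PFJ arrays, open blue symbols control arrays, circles replicate 1 and triangles replicate 2; in GstD10 both PFJ arrays (5.21 and 6.04) lie right of both control arrays (4.29 and 3.66).

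The delta class held the member with the largest difference. GstD10 read 5.21 and 6.04 in PFJ replicates 1 and 2, against 4.29 and 3.66 in control replicates 1 and 2. The groups were 0.93 apart at their nearest arrays, which was more than the gap within either group. The means were 5.63 ± 0.59 with PFJ and 3.97 ± 0.44 in controls (SD, n = 2 each), a log2 difference of 1.65 (SE 0.40, 95% interval 0.55 to 2.76) or 3.15-fold, with an unadjusted limma p of 0.0142.

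GstD2, an enzyme known to conjugate isothiocyanates from plants, read 3.26 and 3.46 in PFJ arrays and 2.72 and 2.77 in control arrays. The replicates of each group lay close together, and the groups did not overlap. The log2 difference was 0.61 (SE 0.17, 95% interval 0.14 to 1.09), at a dim signal, with controls in the 21.8th percentile of all genes. GstD4 was dim as well, at 2.81 and 3.34 in PFJ arrays and 2.52 and 2.64 in control arrays, and its difference of 0.50 (SE 0.25) had an interval that included 0. GstD9 read 4.27 and 3.86 in PFJ arrays and 3.76 and 3.67 in control arrays, a difference of 0.35 (SE 0.22). In GstD9 it was PFJ replicate 1 that read highest, unlike in GstD10, GstD2 and GstD4.

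GstD1, the abundant delta enzyme known for breaking down DDT, was the brightest delta row. It read 6.69 and 7.28 in PFJ arrays and 6.72 and 6.25 in control arrays. PFJ replicate 1 lay just under control replicate 1, so the groups overlapped, and the difference was 0.50 (SE 0.31, 95% interval -0.35 to 1.35). The remaining delta genes, GstD3, GstD5, GstD6, GstD7, GstD8 and GstD11, all overlapped between groups, with log2 differences from -0.02 in GstD5 to 0.16 in GstD7. The dimmest of them in controls, GstD6, read 2.74 and 2.52 in PFJ arrays and 2.74 and 2.28 in control arrays. In the class as a whole, 4 of 11 delta genes had both PFJ arrays above both control arrays (36.4%, against 15.5% of all genes). The median difference of the class was 0.16, and with each array left out in turn it was 0.20 to 0.44.

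The epsilon class had the most members with separated groups, 9 of 14 above (64.3%, against 15.5% of all genes) and 1 below (7.14%, against 13.1%). The median difference of the class was 0.29, and with each array left out in turn it was 0.20 to 0.48. GstE7 read 4.40 and 5.32 in PFJ arrays and 3.94 and 3.17 in control arrays. Its means were 4.86 ± 0.65 and 3.55 ± 0.54 in PFJ and control arrays (SD, n = 2 each), a log2 difference of 1.31 (SE 0.45) or 2.48-fold, with an unadjusted limma p of 0.0436. The PFJ arrays themselves were 0.92 apart.

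GstE3, the brightest epsilon row in controls, read 5.83 and 6.62 in PFJ arrays and 5.69 and 4.39 in control arrays. Most of its 2.27-fold difference came from control replicate 2, while control replicate 1 was only 0.14 under the lower PFJ array. The log2 difference of 1.18 had an SE of 0.56 and a 95% interval from -0.37 to 2.73, and without control replicate 2 the difference was 0.53.

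GstE1 was more even. It read 5.48 and 5.80 in PFJ arrays and 5.07 and 4.68 in control arrays, a log2 difference of 0.77 (SE 0.24) or 1.71-fold, with an unadjusted limma p of 0.0312. GstE9 read 3.16 and 3.25 in PFJ arrays and 2.72 and 2.55 in control arrays, a difference of 0.57 (SE 0.17) at a signal in the 18.6th percentile. In both genes the gap between groups exceeded the gap within each group.

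Smaller separations were seen in 5 further epsilon genes. GstE10 read 3.67 and 3.99 in PFJ arrays and 3.54 and 3.31 in control arrays, a difference of 0.40 (SE 0.21). GstE8 read 2.66 and 2.95 against 2.60 and 2.30 in PFJ and control arrays, a difference of 0.35 (SE 0.22). GstE5, the dimmest epsilon row in controls, read 2.54 and 2.70 against 2.48 and 2.29. GstE11 and GstE12 had differences of 0.33 and 0.24, and in GstE11 the groups were only 0.01 apart. None of these 5 differences had a 95% interval that excluded 0.

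The other epsilon genes showed little. GstE14 (noppera-bo), which is required for ecdysteroid synthesis in the prothoracic gland, overlapped between groups with a difference of 0.18 (SE 0.18). GstE13, with both PFJ arrays below both control arrays, differed by -0.11 (SE 0.16), the arrays running from 3.29 to 3.46. GstE2, GstE4 and GstE6 overlapped, with differences of -0.07, 0.08 and 0.24.

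**Figure D2:**
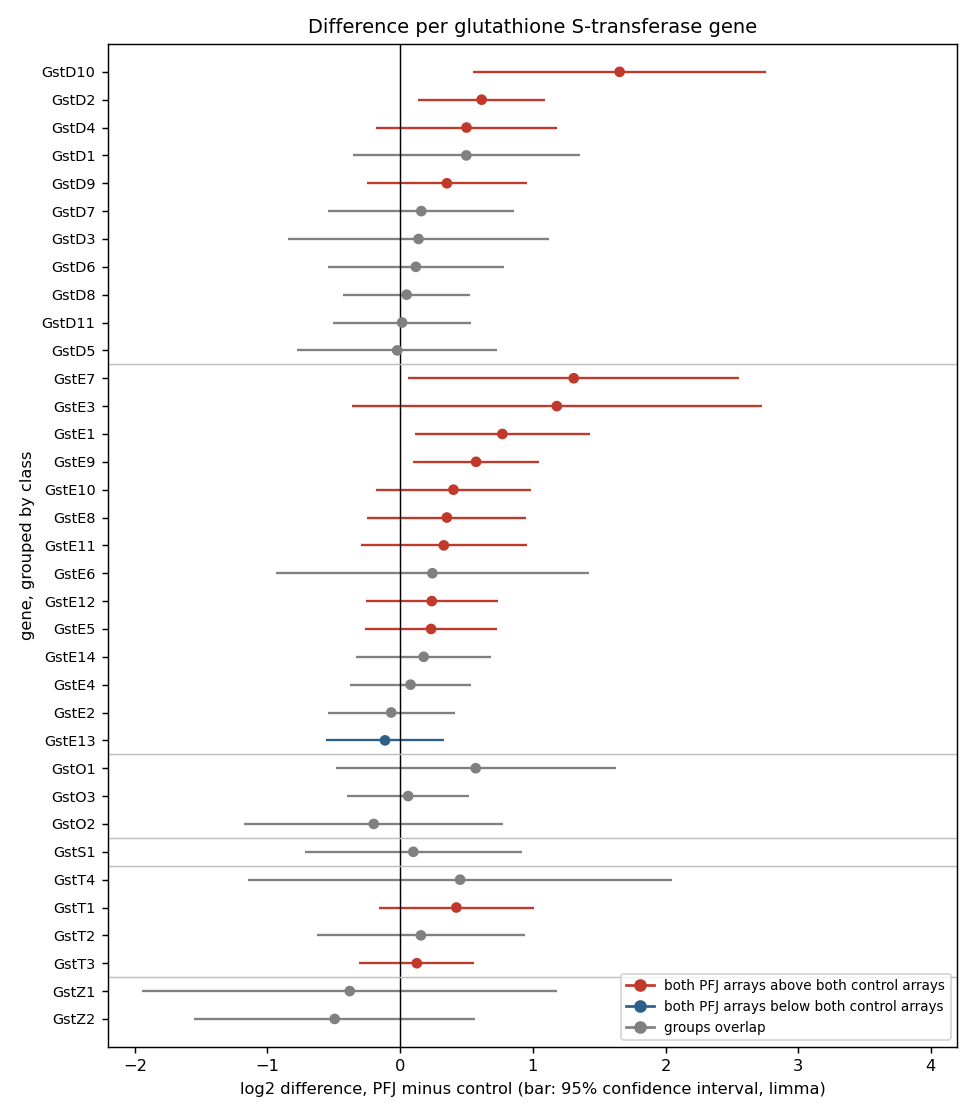
Log2 difference, PFJ minus control, of each of the 35 genes (points) with its 95% confidence interval from limma (bars), sorted within class. Red marks the 15 genes with both PFJ arrays above both control arrays, blue the 1 gene with both below and grey the 19 genes whose groups overlap; the intervals of GstD10, GstD2, GstE1, GstE7 and GstE9 exclude 0 before adjustment.

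The theta genes, whose class is shared with vertebrates, all had positive differences, with a median of 0.29, when all 4 arrays were used. Without PFJ replicate 2 the median was 0.02, with GstT2 at -0.07 and GstT4 at -0.23, and without control replicate 1 it was 0.09, with GstT2 at -0.08. GstT1 read 5.93 and 5.96 in PFJ arrays and 5.32 and 5.72 in control arrays, a difference of 0.42 (SE 0.21). GstT3 read 5.41 and 5.45 against 5.31 in each control array, so its groups were separated, but by a difference of only 0.13 (SE 0.16). GstT4 read 6.26 and 7.61 in PFJ arrays and 6.08 and 6.88 in control arrays. GstT2 read 3.13 and 3.59 in PFJ arrays and 2.96 and 3.45 in control arrays. In both GstT4 and GstT2 the replicate 2 array was the higher one in each group, as with the mean of the midgut markers, whose part in these values was not tested. Their differences were 0.45 (SE 0.58) and 0.16 (SE 0.28).

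The 3 omega genes, whose enzymes act as thiol transferases and dehydroascorbate reductases, all overlapped between groups. GstO1 read 3.99 and 3.32 in PFJ arrays and 3.44 and 2.73 in control arrays, a difference of 0.57 (SE 0.38) with replicate 1 the higher in each group. GstO2 read 5.56 and 6.44 in PFJ arrays and 6.11 and 6.29 in control arrays. GstO3 was flat, at 6.92 and 6.94 in PFJ arrays and 6.79 and 6.95 in control arrays, and its difference of 0.06 had a 95% interval from -0.40 to 0.52.

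GstS1, the only sigma gene and a transferase known for acting on the lipid peroxidation product 4-hydroxynonenal, was the brightest row of the family. It read 8.69 and 9.21 in PFJ arrays and 9.09 and 8.61 in control arrays. The groups covered nearly the same range, and the difference was 0.10 (SE 0.30, 95% interval -0.72 to 0.92).

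Both zeta genes had negative differences. Zeta enzymes isomerise maleylacetoacetate in the breakdown of tyrosine. GstZ2 read 6.06 and 6.69 in PFJ arrays and 6.49 and 7.25 in control arrays, a difference of -0.49 (SE 0.38), which was -0.11 without control replicate 2 and -0.18 without PFJ replicate 1. GstZ1 read 4.94 and 6.48 in PFJ arrays and 6.12 and 6.06 in control arrays, a difference of -0.38 (SE 0.56) that rested on PFJ replicate 1. Without that array the difference of GstZ1 was 0.39.

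An array intensity depends on a gene's probes as well as its RNA, so intensities of different genes are given here as brightness and not ordered as amounts of RNA. In controls, 13 of the 35 members were brighter than the median gene, 2 of 11 in class D, 3 of 14 in class E, 2 of 3 in class O, 3 of 4 in class T, both of class Z and the 1 of class S. Class D control means ran from 2.51 to 6.48 and class E means from 2.38 to 5.04.

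The background share differed with brightness, so all genes were split by mean intensity into dim, middle and bright parts of equal size. Separated groups with PFJ higher were found in 38.5% of 13 dim members, against 23.9% of all dim genes. They were found in 54.5% of 11 middle members, against 13.6% of all middle genes, and in 36.4% of 11 bright members, against 9.0% of all bright genes. The split used the mean over all 4 arrays, and by the control arrays alone the separated GstE1 would lie in the middle part and GstO1, which overlapped, in the dim part. The median differences of these members were 0.16, 0.33 and 0.13 from dim to bright, and those of all genes were 0.07, 0.01 and -0.10.

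By position, 21 of the 25 delta and epsilon genes lie in a pair of gene clusters. In RefSeq's annotation, used here for gene order only, the 11 delta genes on chromosome arm 3R run in the order GstD10, GstD9, GstD1, GstD2 to GstD8 and GstD11, with 1 other protein-coding gene among them. The delta genes with separated groups were GstD10, GstD9, GstD2 and GstD4, and among them lay GstD1 and GstD3, which overlapped. From GstD5 to GstD11 every measured gene overlapped between groups. That stretch is defined by where the separated genes end, so it is a description only. GstD5 to GstD8 were dim (control percentiles 14.9 to 21.1), as were GstD2 and GstD4. The nearest measured genes on each side, Tim17a1 and Sol1, differed by -0.44 (SE 0.61) and -0.28 (SE 0.21). Tim17a1 overlapped between groups. Sol1 had both PFJ arrays (2.94 and 2.55) below both control arrays (3.10 and 2.97), as had 13.1% of all genes.

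The epsilon cluster on arm 2R holds GstE10 and then GstE1 to GstE9, with 0 other protein-coding genes among them. Here 7 of 10 genes (70%, against 15.5% of all genes) had both PFJ arrays above both control arrays and the median difference was 0.38. Of the 4 epsilon genes outside the cluster, 2 (50%) had such values, with a median of 0.21, and the difference between these sets was not tested. Within the cluster GstE2, GstE4 and GstE6 were the ones that overlapped, each next to genes that did not. The flanking genes were Idgf5, at 0.10 (SE 0.19), and imd, at -0.07 (SE 0.38), and both overlapped between groups. Neighbouring members are related in sequence, and cross-hybridisation between their probes was not tested.

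**Figure D3:**
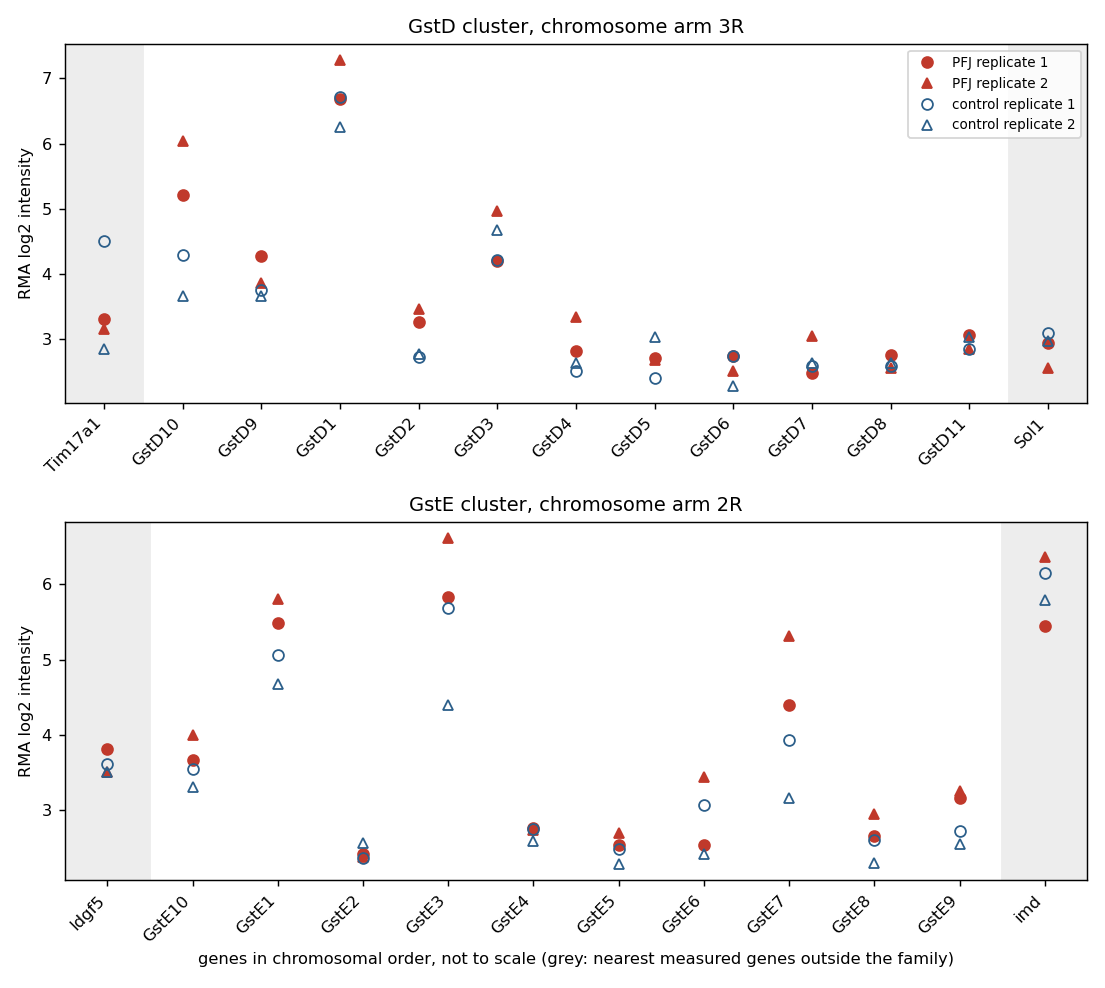
RMA log2 intensity (vertical axis) in each of the 4 arrays for the genes of the GstD and GstE clusters in chromosomal order, not to scale, with the nearest measured gene outside the family on each side shaded grey. Separated genes such as GstD10 and GstE7 (4.40 and 5.32 in PFJ arrays, 3.94 and 3.17 in control arrays) stand between neighbours whose groups overlap or differ less.

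The 2 PFJ pools did not contribute equally. PFJ replicate 2 was the highest array in 22 of 35 members (62.9%), against 18.9% of all genes, and PFJ replicate 1 in 7 (20%), against 29.3% of all genes. Control replicate 2 was the lowest array in 17 members (48.6%), against 29% of all genes. The median deviation of members from their own mean over the 4 arrays was 0.04 in PFJ replicate 1, 0.31 in PFJ replicate 2, -0.09 in control replicate 1 and -0.19 in control replicate 2.

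The strict order PFJ replicate 2, PFJ replicate 1, control replicate 1, control replicate 2 was found in 8 members (22.9%), against 3.58% of all genes. These were GstD10 and 7 genes of the epsilon cluster, GstE1, GstE3, GstE5, GstE7, GstE8, GstE9 and GstE10. Those 7 are the genes of that cluster with separated groups. This order was picked after the values were seen and can hold only where the groups are separated, so these counts are a description only. The same order held for 4 of the 8 fat body markers (50%), Fbp2, apolpp, Lsd-1 and FASN1, and for their mean, which was 9.61 and 9.74 in PFJ arrays and 9.23 and 9.03 in control arrays. It held for 3 of the 28 midgut markers (10.7%). The mean of 8 muscle markers was likewise highest in PFJ replicate 2 and lowest in control replicate 2, at 6.93 and 7.65 in PFJ arrays and 7.37 and 6.15 in control arrays. The mean of 10 hemocyte markers was 4.32 and 4.71 in PFJ arrays and 4.12 and 4.50 in control arrays, and that of 7 Malpighian tubule markers was 5.27 and 5.87 in PFJ arrays and 5.57 and 5.56 in control arrays. The part of these markers in the values of the transferases was not tested.

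**Figure D4:**
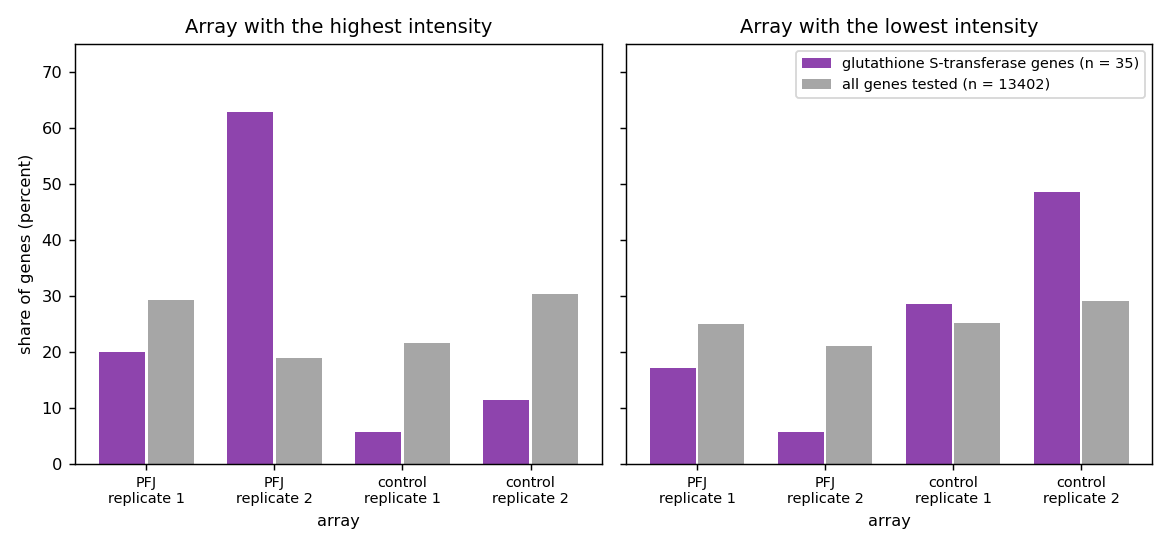
Share of genes (percent) in which each of the 4 arrays read highest (left) or lowest (right), for the 35 glutathione S-transferase genes (purple) and all 13402 genes tested (grey). PFJ replicate 2 was highest in 62.9% of the family and 18.9% of all genes.

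Each pool was also left out in turn, in fits where 1 group has a single array that is assumed to vary like the pair of the other group. Without PFJ replicate 2 the median of the family was 0.15. At an unadjusted limma p under 0.05, 0 members were then higher and 1, GstZ1, was lower, against 4.22% of all genes in either direction. Without control replicate 2 the median was 0.20, and GstD10 alone was at that level, against 3.93% of all genes. Both counts were no larger than these shares. Without PFJ replicate 1 the median was 0.36 with 4 members higher, against 2.27% of all genes, and without control replicate 1 it was 0.33 with 4 members higher, against 7.05% of all genes. GstD10 differed by 1.24 to 2.07 over these 4 settings and GstE7 by 0.85 to 1.77.

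**Figure D5:**
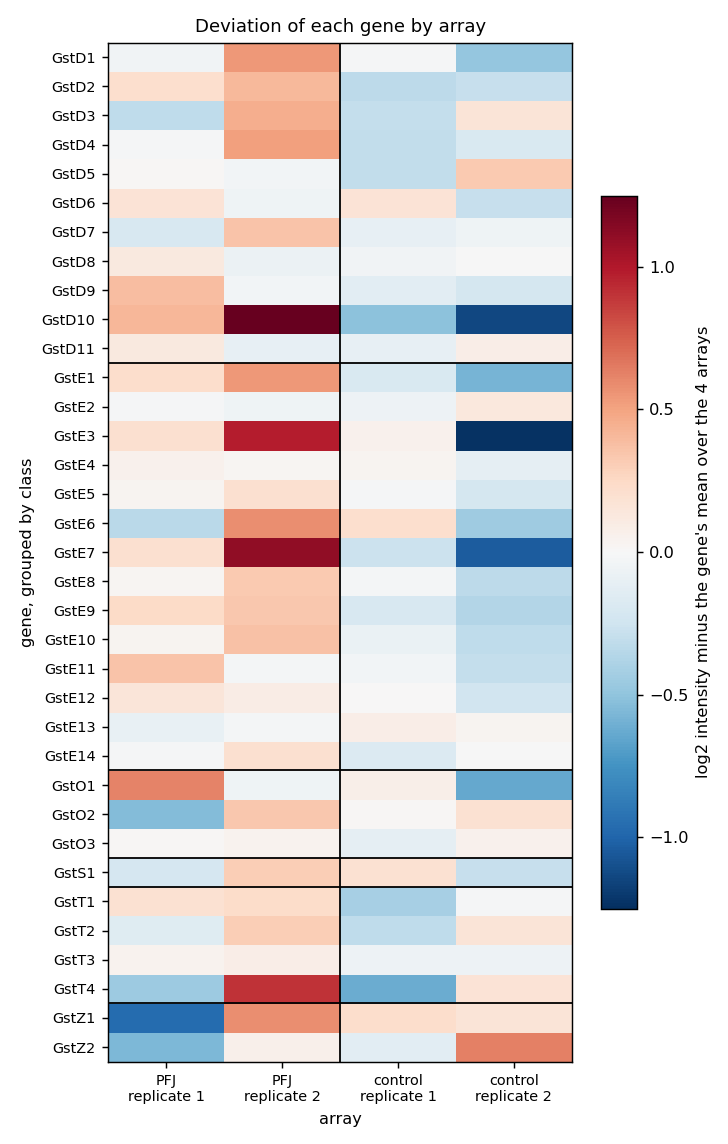
Log2 intensity of each of the 35 genes minus its own mean over the 4 arrays (colour; red above, blue below), with PFJ arrays in the left columns and control arrays in the right, grouped by class. The strongest reds lie in PFJ replicate 2 (median deviation 0.31) and the strongest blues in control replicate 2 (median deviation -0.19).

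Genes around the transferases were read from lists. Of the 2 measured genes of glutathione synthesis, Gclm, the modifier subunit of the rate-limiting ligase, read 6.32 and 6.78 in PFJ arrays and 5.96 and 5.80 in control arrays, a difference of 0.67 (SE 0.23). Its unadjusted limma p was 0.0444, and it was the 1 gene of the 2 under 0.05, against 2.78% of all genes. The catalytic subunit gene Gclc overlapped between groups, at 0.15 (SE 0.42). The 4 genes of the Nrf2 pathway all had differences below 0. They were -0.11 (SE 0.18) in cnc, -0.26 (SE 0.27) in Keap1, -0.06 (SE 0.21) in maf-S and -0.03 (SE 0.16) in ref(2)P, the fly p62. Of these, cnc, maf-S and ref(2)P were bright (control percentiles 93.1, 89.3 and 97.4). In the bright part of all genes 36.2% had differences above 0, with a median of -0.10, against 51.9% of all genes. In ref(2)P, 1 of the 4, both PFJ arrays were below both control arrays, against 13.1% of all genes. None of these 6 genes passed the adjusted test.

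Among 8 genes of glutathione breakdown or of ABC transporters, 2 had both PFJ arrays above both control arrays and 1 had both below, against 15.5% and 13.1% of all genes. The ABC transporter genes Mdr49 and MRP differed by 0.55 (SE 0.25) and 0.21 (SE 0.17). CG4829, a gamma-glutamyl transferase family gene, differed by -0.50 (SE 0.31) and Mdr65 by -0.47 (SE 0.37). At an unadjusted limma p under 0.05 there were 0 of the 8, against 2.78% of all genes, and the median of the list was -0.38.

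Of 3 measured genes that supply NADPH or feed the pentose phosphate pathway, Taldo, the transaldolase gene, read 6.38 and 6.57 in PFJ arrays and 5.53 and 5.39 in control arrays, a difference of 1.02 (SE 0.18). Its unadjusted limma p was 0.00444, and it did not pass the adjusted test. Taldo was the 1 gene of the 3 at an unadjusted limma p under 0.05, against 2.78% of all genes. Malic enzyme (Men) and isocitrate dehydrogenase (Idh) overlapped between groups, at 0.71 (SE 0.59) and 0.18 (SE 0.20). The 7 measured glutathione- and thioredoxin-linked redox genes had a median of 0.20. In 3 of the 7 both PFJ arrays were above both control arrays, against 15.5% of all genes. The largest difference, 1.80 (SE 2.53) in TrxT, was between groups that overlapped. TrxT read 9.05 and 7.97 in PFJ arrays and 10.25 and 3.18 in control arrays. Control replicate 2 was its lowest array, as with the mean of the testis markers, whose part in this value was not tested. The glutaredoxin gene Grx1 differed by 0.39 (SE 0.18), Trx2 by 0.20 (SE 0.16), dhd by 0.43 (SE 0.22) and Grx1t by 0.20 (SE 0.20). Both dhd and Grx1t were dim, with controls at the 15.8th and 10.9th percentile of all genes. Of the 7, 0 reached an unadjusted limma p under 0.05, against 2.78% of all genes.

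Genes with a transferase fold or activity that the symbol rule leaves out had a median of -0.09 over 6 genes. Mgstl, the membrane-bound microsomal transferase, read 4.31 and 4.79 in PFJ arrays and 4.19 and 3.83 in control arrays, a difference of 0.54 (SE 0.26). It was the 1 gene of these 6 with both PFJ arrays above both control arrays, where 15.5% of all genes showed this. The groups of se (sepia), an omega transferase of eye pigment synthesis, and of gfzf, Clic, Gdap1 and eEF1gamma overlapped, with differences of -0.25 in Clic, -0.23 in Gdap1 and 0.11 in eEF1gamma among those with the smallest p. None passed the adjusted test.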

How the data were processed

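The authors deposited a log2 intensity for each transcript cluster on each array, computed by RMA in Affymetrix Expression Console (version 1.4.0.38), per the submitters' processing notes. The log2 scale follows from the range of the values, 1.36 to 12.7. No genome build or probe annotation is given in the sources used here, and coordinates are left out. RMA equalises the arrays' probe distributions before it summarises them, so a shift common to most genes is reduced, but the medians over all genes still ran from 3.86 to 4.02 between arrays. No detection call was made, and precision is limited by the number of arrays.

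Of 16322 rows, 13441 had 1 symbol in the platform table, 555 had several and 2326 none. The brightest row was kept for 37 genes with several rows, leaving 13402 genes. PFJ was compared with control in R 4.3.3 with limma 3.58.1 (lmFit, eBayes, two-sided, no covariate, 4.01 degrees of freedom), with Benjamini-Hochberg adjustment over all 13402 genes and a threshold of 0.05. The procedure was tested on simulated data. Figures used matplotlib 3.10.9.

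Values in every array are given for the 12 members with the smallest unadjusted p, the member of each class with the highest and the lowest control mean, and every member of classes with 4 or fewer. Up to 4 genes of each pathway list, those with the smallest p, are named, and TrxT for the largest difference in its list. Members, lists and tests were chosen with earlier results of these data known. The flanking genes of the clusters, the strict array order and the split by brightness were added after the values were seen. Alternatives covered repeated quantile normalisation, median centring, filters on dim genes at the 25th and 50th percentiles, a trended robust prior, the mean of rows, all rows, each array left out and a replicate block. RefSeq gene order came from the Release 6 plus ISO1 MT assembly.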

Additional observations from a re-analysis of the deposited data

How the results depend on the processing

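No member passed the adjusted limma test under any setting run. The count of members at an unadjusted limma p under 0.05, which was 5, became 3 with quantile normalisation repeated, against 2.54% of all genes. It was 3 with median centring, against 1.96%. In both settings GstD10, GstE1 and GstE7 stayed, and GstD2 and GstE9 were lost. With the stricter filter on dim genes the count was 3 of the 15 members left, against 2.87% of the genes left. That filter, on the mean over all 4 arrays, left 15 members, 7 of them with both PFJ arrays above both control arrays (10.1% of all genes left) and 0 with both below. GstD10 and GstE7 passed it only through their PFJ arrays, so these counts are a description only. The class medians were then 0.50 over 3 delta genes and 0.98 over 4 epsilon genes. These medians include GstD10 and GstE7, so they are a description only as well. With each array left out in turn the count at an unadjusted p under 0.05 was 1 to 4, the count above was 19 to 25 and the count below was 2 to 6. Fewer arrays make separation easier, and 27.5% to 36.6% of all genes were then above. The share of all genes below was not computed for these settings, so the count below is a description only. The family's median was 0.16 with quantile normalisation repeated and 0.19 with median centring, where the median of all genes was -0.03 in both. Shared replicate numbers come from the titles only. Replicate 1 minus replicate 2 correlated between groups at r = 0.34 across genes, which are not independent. With the replicate block the count at an unadjusted limma p under 0.05 was 4, against 4.08% of all genes, with GstO1 added and GstE1 and GstE7 lost. The family's median was then 0.23, and the adjusted test still called 0 members.

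Some differences turned with the setting, among them those of GstT4 and GstZ1, and the cause was not tested. With quantile normalisation repeated GstD11 was -0.10, GstD8 -0.063 and GstE4 -0.022, and with median centring GstD11 was -0.032. With each array left out in turn the ranges that crossed 0 were -0.10 to 0.13 for GstD11, -0.053 to 0.15 for GstD8, -0.25 to 0.52 for GstD3, -0.12 to 0.44 for GstD7, -0.34 to 0.29 for GstD5, -0.11 to 0.35 for GstD6, -0.17 to 0.033 for GstE2, -0.21 to 0.70 for GstE6, -0.64 to 0.24 for GstO2, -0.019 to 0.14 for GstO3, -0.16 to 0.36 for GstS1, -0.084 to 0.40 for GstT2, -0.23 to 1.13 for GstT4 and -1.15 to 0.39 for GstZ1.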
